A study of Mus musculus with 18 samples.

Results

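The dystrophin glycoprotein complex and dysferlin were followed in the nuclear and cytoplasmic RNA of mouse myofibers through 8 genes: Dmd, Utrn, Dag1, Sgca, Sgcb, Sgcd, Sspn and Dysf. All probes named after these genes in the scanner files were taken, controls left out, which gave 18 of the 55681 probe names on the array, on 20 of 59305 spots. Dmd had 5 probes, Sgcb and Sgcd had 3 each, Utrn and Sgca had 2 each, and Dag1, Sspn and Dysf had 1 each. RNA came from CD1 female mice aged 3 months, untreated as far as the labels say, and from 3 muscles, EDL, soleus and TA, with 3 arrays for each fraction of each muscle and 18 arrays in all. Each sample was a pool of 5 to 10 dissociated myofibers that had been lysed in Triton X-100 and spun to separate nuclei from the supernatant. The nuclear and cytoplasmic samples of EDL and soleus with the same number came from the same pair of mice, whereas TA cytoplasm replicates 1 and 2 shared 1 mouse and TA cytoplasm replicate 3 shared none with its nuclear counterpart.

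Dystrophin, encoded by Dmd, ties the actin cytoskeleton under the muscle membrane to dystroglycan, and dystroglycan, encoded by Dag1, binds laminin outside the fiber. The sarcoglycans (Sgca, Sgcb, Sgcd and others) and sarcospan (Sspn) form a membrane subcomplex that holds this link together. Utrophin (Utrn) is the close relative of dystrophin that is concentrated at neuromuscular and myotendinous junctions of adult fibers. Dysferlin (Dysf) acts beside the complex, in the resealing of membrane tears. Loss of dystrophin causes Duchenne muscular dystrophy, and mutations of sarcoglycans or dysferlin cause limb-girdle dystrophies.

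The sequences of 7 probes are shown because the results on the linkers and on delta-sarcoglycan, and the contrast with alpha-sarcoglycan, rest on them. All are 60 bases long, read 5′ to 3′ along the transcript and lie on mm9. The 3 Dmd probes are at chrX:80596782-80596841, chrX:81132417-81132476 and chrX:82389391-82389450 on the plus strand. The Utrn probe is at chr10:12221228-12221287, the Sgcd probes are at chr11:46939058-46939117 and chr11:46794345-46794404, and the Sgca probe is at chr11:94824546-94824605, all on the minus strand. Each of the 7 is annotated in the files to a RefSeq mRNA and has at least 1 reading frame without a stop codon.
Dmd A_55_P2167913: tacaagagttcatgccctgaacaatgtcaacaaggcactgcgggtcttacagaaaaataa
Dmd A_55_P2167922: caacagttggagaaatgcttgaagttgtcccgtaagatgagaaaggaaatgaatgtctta
Dmd A_52_P306697: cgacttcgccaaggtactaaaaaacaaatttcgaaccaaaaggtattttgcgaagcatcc
Utrn A_55_P2212027: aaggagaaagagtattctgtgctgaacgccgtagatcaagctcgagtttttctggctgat
Sgcd A_55_P2138714: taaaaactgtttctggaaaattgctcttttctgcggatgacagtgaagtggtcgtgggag
Sgcd A_51_P389004: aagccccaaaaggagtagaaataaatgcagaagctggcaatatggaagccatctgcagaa
Sgca A_55_P2007384: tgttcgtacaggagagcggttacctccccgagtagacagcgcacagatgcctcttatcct
No probe of the 8 genes shared a stretch of 30 bases with any other probe of the array on either strand.

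Levels are log2 of the scanner intensity after quantile normalization, and a level is relative to the other RNA on the same array. Between 58.6% and 71.2% of spots per array were well above background. Replicate arrays correlated at 0.985 to 0.992 in nuclei and at 0.906 to 0.971 in cytoplasm across probes. All 19 muscle fiber markers were well above background on all 3 arrays of each of the 6 groups. A probe is called different when its p-value in limma, adjusted by Benjamini and Hochberg over all probes tested in that comparison, is under 0.05. The nuclear arrays of EDL and soleus lay on another slide, scanned on another day, than the cytoplasmic ones, so fraction and slide cannot be told apart in those 2 muscles. In TA, 1 slide held the 3 nuclear arrays and cytoplasm replicate 2, and its values are given below. In either fraction, fewer cells of a type and less RNA per cell cannot be told apart, nor can less of an RNA and more of all other RNA. For probes spotted 10 times, the SD between nuclear replicates was 0.065 to 0.117, where the spread of spots within an array alone gave 0.039 to 0.046, and between cytoplasmic replicates it was 0.255 to 0.399. The p-values measure only the spread between arrays, part of which may be technical. This spread was pooled for each probe over the 6 groups, so arrays in neither group compared can change a call. For Dmd A_55_P2093624, TA against EDL in nuclei had adjusted p = 0.0918 in limma, and 0.00743 without soleus cytoplasm replicate 2. In cytoplasm the pooled spread can be smaller than that of the groups compared. For Sgca A_55_P2007384, TA against EDL in cytoplasm was called with SE 0.333, although TA cytoplasm had SD 0.963 and the groups overlapped.

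Over the 3 muscles, the RNAs of the linkers and of dysferlin had higher levels in nuclei, those of dystroglycan and alpha-sarcoglycan did not pass the test, and the beta-sarcoglycan probes were called in both directions. Of the 16 probes that could be tested, 12 were called, 10 of them higher in nuclei and 2 higher in cytoplasm, beside 69.8% called among all 40541 probes tested, 31.2% higher in nuclei and 38.6% lower. The median difference of the 16 probes was 0.96, against -0.08 for all probes. In single muscles, 10 of 17 probes were called in EDL (background 46.6%), 9 of 17 in soleus (40.3%) and 8 of 16 in TA (52.7%), every one of them higher in nuclei. Background shares of probes called higher in nuclei were 20.0%, 18.7% and 19.2% in these muscles. The arrays of the 2 fractions did not overlap, with nuclei higher, for 11 of 17 probes in EDL (background 31.5%), 11 in soleus (28.3%) and 11 in TA (22.2%), and with nuclei lower for 2 (34.8%), 1 (28.2%) and 1 (38.0%). For Dmd A_52_P306697 in TA this rests on a single cytoplasmic value. With the 3 nuclear arrays of a muscle averaged to 1 sample, fewer probes were called in each muscle, among the 8 genes and over all probes alike. Without scaling between arrays the median over all probes was 0.42 over the 3 muscles, so differences near 0 are relative to the scaling.

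**Figure D1:**
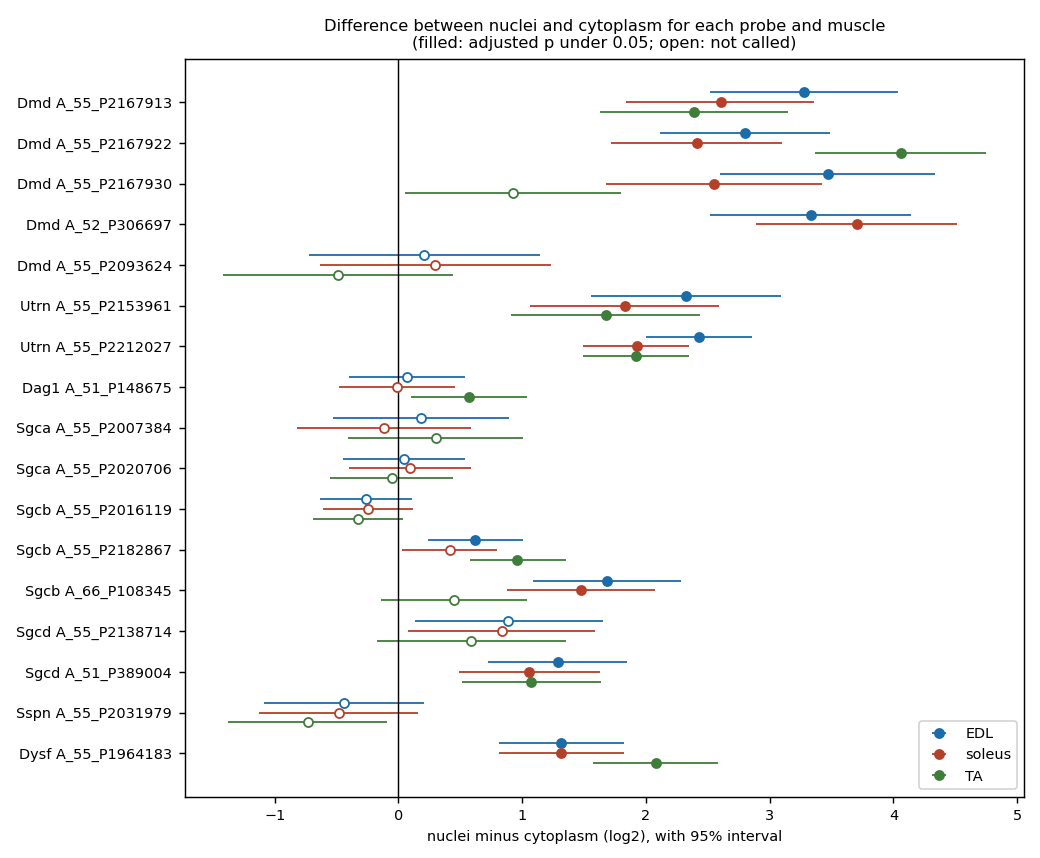
Nuclei minus cytoplasm (log2, x axis) for 17 probes of the 8 genes in EDL, soleus and TA, with 95% intervals from limma; filled points have an adjusted p under 0.05. Dmd probes other than A_55_P2093624, and Utrn and Dysf, lie to the right of 0, with the Sspn points to the left of it. Cytoplasmic signal of Dmd A_55_P2167930 in all 3 muscles and of A_52_P306697 in soleus was not well above background. Their points there are the fitted differences, which rest on dim signal, and not the bounds given in the text. A_52_P306697 was not tested in TA.

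Dmd probes spanned 1854.6 kb of the gene, and 4 of the 5 were called higher in the nuclei of EDL and soleus. Probe A_55_P2167922, which lies 535.6 kb downstream of the first, read 7.99, 8.16 and 7.99 in EDL cytoplasm and 10.77, 10.90 and 10.88 in EDL nuclei. In soleus it read 8.61, 9.17 and 7.72 in cytoplasm and 10.93, 10.84 and 10.96 in nuclei. In TA the cytoplasmic levels were 6.16, 4.89 and 5.89 and the nuclear levels 9.72, 9.81 and 9.59. Each nuclear array was thus above each cytoplasmic array of its muscle. The difference was 2.80 (SE 0.32) in EDL, 2.41 (SE 0.32) in soleus and 4.06 (SE 0.32) in TA. Over the 3 muscles it was 3.09 (SE 0.19, adjusted p = 3.28e-09), an 8.52-fold nuclear excess.

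The 5′ most probe of Dmd, A_55_P2167913, was also higher in nuclei. Its EDL levels were 7.20, 6.92 and 7.87 in cytoplasm against 10.62, 10.60 and 10.60 in nuclei. Soleus cytoplasm read 8.04, 8.32 and 7.01, and soleus nuclei read 10.37, 10.33 and 10.48. TA cytoplasm read 7.40, 5.97 and 6.32, and TA nuclei read 8.87, 9.00 and 8.99. Fractions did not overlap in any muscle, and the difference over the 3 muscles was 2.76 (SE 0.21, adjusted p = 2.48e-08).

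Farther along the gene, cytoplasmic signal was near background. Probe A_52_P306697, at 1792.6 kb, read 7.02, 7.05 and 7.01 in EDL nuclei against 4.63, 3.34 and 3.12 in EDL cytoplasm, where it was well above background on 1 of 3 arrays. Its nuclear levels were 7.31, 7.31 and 7.35 in soleus and 6.15, 6.13 and 6.16 in TA. The EDL difference was 3.33 (SE 0.38, adjusted p = 1.73e-05). In soleus cytoplasm the signal was not well above background, and the bound from the means was a 13.03-fold nuclear excess (log2 interval 2.89 to 4.51, adjusted p = 1.15e-05). In TA only 1 cytoplasmic array gave a value (3.83), so that the probe was not tested, and the bound from that array was 4.98-fold. Probe A_55_P2167930, at 1624.2 kb and annotated to a cDNA clone of neonate sympathetic ganglion and not to the reference mRNA, was not well above background in the cytoplasm of any muscle. The bound from the means was an 11.09-fold nuclear excess in EDL (log2 interval 2.6 to 4.34, adjusted p = 3.09e-05). In soleus it was 5.33-fold (log2 interval 1.68 to 3.42, adjusted p = 0.000404). In TA nuclei the probe was well above background on 1 of 3 arrays, and the bound there was 1.90-fold (log2 interval 0.05 to 1.8, adjusted p = 0.0704). These 3 bounds rest on the 2 cytoplasmic arrays of each muscle that gave a value. The bounds of both probes allow for dim signal but not for the spread between arrays, and the intervals are those of the measured difference.

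The probe farthest downstream, A_55_P2093624, at 1854.6 kb, was not called in any muscle. It read 4.55, 4.86 and 4.30 in EDL cytoplasm and 5.03, 4.77 and 4.53 in EDL nuclei. In TA it read 4.70, 4.10 and 3.69 in cytoplasm and 3.55, 3.64 and 3.83 in nuclei, where it was not well above background. Fractions overlapped in each muscle, and the difference over the 3 muscles was 0.01 (SE 0.25, interval -0.53 to 0.54, adjusted p = 0.986). No test compared the Dmd probes with each other.

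**Figure D2:**
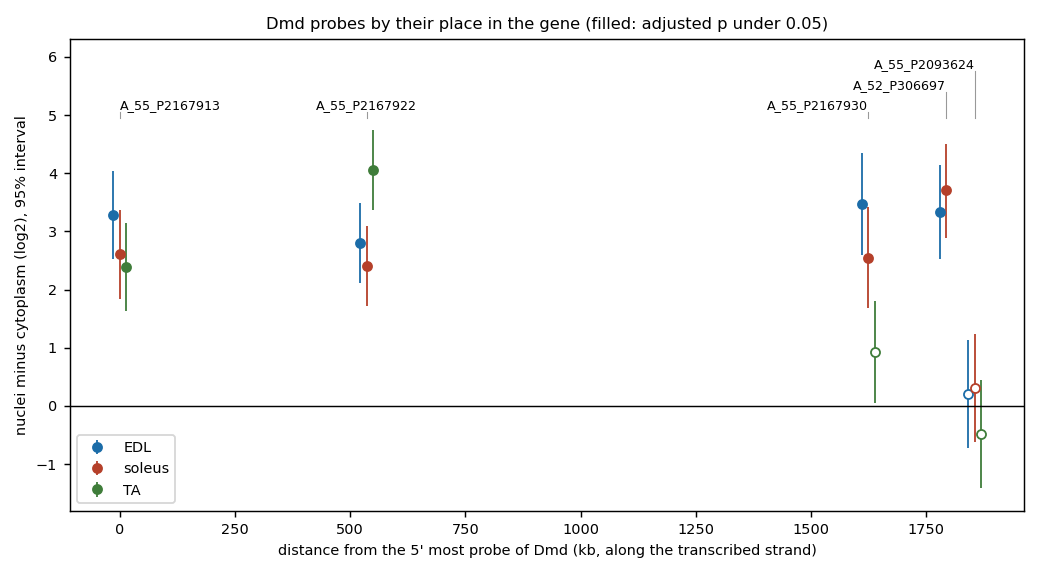
Nuclei minus cytoplasm (log2, y axis, 95% intervals) of the 5 Dmd probes against the distance of each from the 5′ most probe in kb, for EDL, soleus and TA (points of a probe are set slightly apart). The 4 upstream probes have positive values in each muscle that was tested, and the probe at 1854.6 kb has intervals that include 0.

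Utrn was higher in nuclei in all 3 muscles. Probe A_55_P2212027 read 7.50, 7.29 and 7.46 in EDL cytoplasm and 9.83, 9.94 and 9.78 in EDL nuclei. Soleus cytoplasm gave 7.32, 7.93 and 7.64 and soleus nuclei 9.48, 9.51 and 9.67. TA cytoplasm gave 7.11, 7.52 and 7.86 and TA nuclei 9.45, 9.51 and 9.29. All 9 nuclear arrays were above all 9 cytoplasmic arrays. Over the 3 muscles the difference was 2.09 (SE 0.12, adjusted p = 1.55e-09), or 4.26-fold, and single muscles gave 2.43, 1.92 and 1.92 in EDL, soleus and TA. The other Utrn probe, A_55_P2153961, lies 263.8 kb upstream and is annotated to a thymus cDNA clone. It was well above background on 2 of 3 EDL and 1 of 3 soleus cytoplasmic arrays, and its difference was 1.94 (SE 0.21, adjusted p = 8.76e-07), with the fractions apart in each muscle.

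Dag1 had nearly the same level in both fractions of EDL and soleus. EDL cytoplasm read 10.82, 10.32 and 10.46, and EDL nuclei read 10.59, 10.64 and 10.57. Soleus cytoplasm read 11.04, 11.51 and 10.93, and soleus nuclei read 11.22, 11.09 and 11.13. TA cytoplasm read 9.91, 9.14 and 9.84, and TA nuclei read 10.16, 10.38 and 10.06. The fractions overlapped in EDL and soleus, with differences of 0.07 (interval -0.40 to 0.54) and -0.01 (interval -0.48 to 0.46). In TA nuclei were higher by 0.57 (SE 0.22, adjusted p = 0.0415), a call that was lost in 10 of 18 fits that left out 1 array. Adjusted p reached 0.207 without TA cytoplasm replicate 2, where the difference was 0.33, and was 0.0673 with the replicate number as a block. In TA that number does not always mark shared mice. Over the 3 muscles the difference was 0.21 (SE 0.13, adjusted p = 0.158), and it was called with normexp background correction (0.32, adjusted p = 0.0154) and without scaling (0.96).

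**Figure D3:**
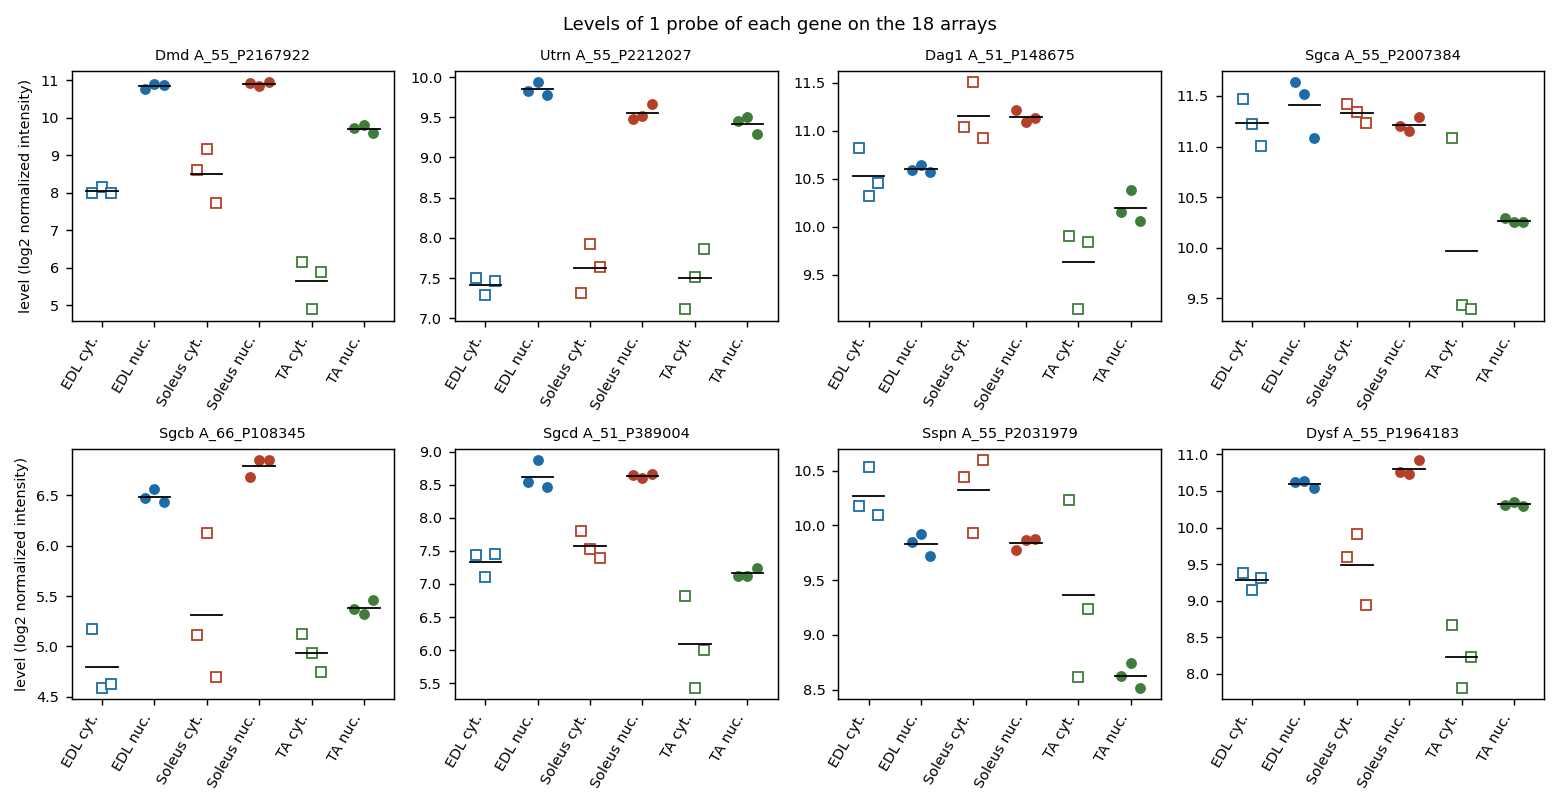
Level (log2 normalized intensity, y axis, scaled separately in each panel) of 1 probe of each gene in the 6 groups; open squares are cytoplasmic arrays, filled circles are nuclear arrays and bars are group means. Dmd, Utrn and Dysf have no cytoplasmic array as high as a nuclear array of the same muscle, and in Sgca and Sspn TA cytoplasm replicate 1, the left square, stands above the other two.

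The sarcoglycans did not move as one group. Sgca, alpha-sarcoglycan, had no call in any muscle with either probe. Probe A_55_P2007384 read 11.47, 11.22 and 11.00 in EDL cytoplasm and 11.64, 11.52 and 11.09 in EDL nuclei. It read 11.42, 11.35 and 11.24 in soleus cytoplasm and 11.21, 11.16 and 11.29 in soleus nuclei. In TA the cytoplasmic levels were 11.08, 9.44 and 9.39 and the nuclear levels 10.30, 10.26 and 10.26, so that replicate 1 of TA cytoplasm stood apart from the other two. The difference over the 3 muscles was 0.12 (SE 0.19, adjusted p = 0.582), and without that array it was 0.31 (adjusted p = 0.012). Probe A_55_P2020706, 0.4 kb downstream, gave 0.03 (SE 0.13, adjusted p = 0.852) with an interval of -0.26 to 0.32.

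Sgcd, delta-sarcoglycan, was higher in nuclei. Probe A_51_P389004 read 7.44, 7.11 and 7.46 in EDL cytoplasm and 8.54, 8.87 and 8.46 in EDL nuclei. Soleus cytoplasm gave 7.803, 7.53 and 7.39 and soleus nuclei 8.64, 8.60 and 8.66. TA cytoplasm gave 6.82, 5.43 and 6.01 and TA nuclei 7.12, 7.12 and 7.24. The fractions did not overlap, and the difference was 1.29 (SE 0.27) in EDL, 1.06 (SE 0.27) in soleus and 1.07 (SE 0.27) in TA, each called. Probe A_55_P2138714, 144.7 kb upstream, was higher by 0.77 over the 3 muscles (SE 0.21, adjusted p = 0.00352), but was not called in a single muscle, with 0.89 in EDL (adjusted p = 0.0518, and 0.0457 with the replicate number as a block), 0.84 in soleus (adjusted p = 0.0725) and 0.59 in TA (adjusted p = 0.176). Leaving out 1 array at a time gave a call in 3 of 18 fits for EDL and likewise 3 for soleus. The TA value ran from 0.15 to 1.12 and was called in 1 fit, without TA cytoplasm replicate 1 (adjusted p = 0.00238). The EDL calls came without soleus cytoplasm replicate 1 or TA cytoplasm replicate 1 or 2, and so did the soleus calls. The third probe, A_52_P623117, annotated to a cerebellum cDNA clone, gave no positive signal on any of the 18 arrays.

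The 3 probes of Sgcb, beta-sarcoglycan, differed in direction although they lie within 1.7 kb of each other and are annotated to the same mRNA. The most upstream probe, A_55_P2016119, read 8.92, 8.80 and 8.92 in EDL cytoplasm and 8.80, 8.61 and 8.45 in EDL nuclei. Soleus cytoplasm gave 8.97, 8.67 and 9.16 and soleus nuclei 8.56, 8.82 and 8.68. TA cytoplasm gave 9.06, 9.30 and 8.95 and TA nuclei 8.69, 8.80 and 8.84. The nuclear level differed by -0.28 over the 3 muscles (SE 0.10, adjusted p = 0.0215) and by 0.49 without scaling between arrays, with the fractions overlapping in soleus and no call in any single muscle. That call was lost without EDL nuclei replicate 3 (adjusted p = 0.0506), with slide as a random block (adjusted p = 0.23) and when only signal well above background was kept (adjusted p = 0.0875).

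The probe 65 bases farther on, A_55_P2182867, was higher in nuclei. It read 7.20, 7.11 and 7.00 in EDL cytoplasm and 7.90, 7.73 and 7.56 in EDL nuclei. Soleus cytoplasm gave 7.13, 7.54 and 7.36 and soleus nuclei 7.74, 7.75 and 7.78. TA cytoplasm gave 6.21, 5.80 and 5.59, and TA nuclei 6.75, 6.84 and 6.89. The fractions were apart in each muscle, and the difference was 0.67 (SE 0.11, adjusted p = 4.12e-05) over the 3 muscles. In EDL alone it was 0.62 (adjusted p = 0.011), not called without EDL nuclei replicate 1 (0.54, adjusted p = 0.0536). The probe A_66_P108345, 1.7 kb from the first, was higher in nuclei by 1.20 (SE 0.16, adjusted p = 8.37e-06), with values of 1.69 (EDL) and 1.48 (soleus) that were called and one of 0.45 for TA that was not (adjusted p = 0.187).

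Sspn, sarcospan, was lower in nuclei over the 3 muscles, a call that depended on the processing. Its levels were 10.18, 10.53 and 10.10 in EDL cytoplasm and 9.85, 9.92 and 9.72 in EDL nuclei. Soleus cytoplasm read 10.45, 9.93 and 10.59, and soleus nuclei read 9.78, 9.86 and 9.88. TA cytoplasm read 10.24, 8.62 and 9.24, and TA nuclei read 8.62, 8.75 and 8.52. Cytoplasmic arrays were above nuclear arrays throughout EDL and soleus, whereas in TA cytoplasm replicate 2 was within the nuclear range. The difference over the 3 muscles was -0.55 (SE 0.18, adjusted p = 0.0108) and 0.21 without scaling between arrays (adjusted p = 0.213). It was -0.12 with slide as a random block (adjusted p = 0.798), and single muscles gave -0.44, -0.48 and -0.73 with no call (adjusted p = 0.247, 0.217 and 0.0538).

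Dysf was higher in nuclei in all 3 muscles. It read 9.38, 9.15 and 9.31 in EDL cytoplasm and 10.62, 10.63 and 10.54 in EDL nuclei. Soleus cytoplasm gave 9.60, 9.92 and 8.94 and soleus nuclei 10.76, 10.73 and 10.92. TA cytoplasm gave 8.67, 7.81 and 8.23 and TA nuclei 10.31, 10.35 and 10.29. All 9 nuclear arrays were above all 9 cytoplasmic arrays. The difference was 1.57 (SE 0.14, adjusted p = 1.11e-07) over the 3 muscles, a 2.97-fold excess, with 1.32 in EDL, 1.32 in soleus and 2.08 in TA.

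Within the slide that held the 3 TA nuclear arrays, TA cytoplasm was represented by replicate 2 alone, so that the values of the fit with slide as a fixed block are the nuclear mean minus that single array and are given without a test. They were 2.98 and 4.82 for the Dmd probes A_55_P2167913 and A_55_P2167922, 2.51 for Dysf and 1.06 for Dag1, in each of which replicate 2 was the lowest of the 3 cytoplasmic arrays. Utrn gave 1.90 with A_55_P2212027 and 1.67 with A_55_P2153961. The Sgcd probes gave 1.46 and 1.73, Sgca A_55_P2007384 gave 0.84, and Sspn gave 0.01, where the fit without slide had -0.73. Cytoplasm replicates 2 and 3 of TA shared a scan day with TA nuclei, and without replicate 1 the TA differences were 2.81 and 4.32 for the 2 Dmd probes, 2.29 for Dysf, 0.71 for Dag1 and -0.30 for Sspn (adjusted p = 0.288).

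Soleus and EDL, a slow and a fast muscle, were compared within each fraction, where both muscles shared a slide. No probe of the 8 genes was called by limma, in nuclei (17 tested, background 1.56%) or in cytoplasm (17 tested, background 1.42%), and 1 probe in each fraction had an unadjusted p under 0.05. That probe was Dag1, whose soleus level was higher by 0.55 in nuclei (interval 0.07 to 1.02, adjusted p = 0.389) and by 0.63 in cytoplasm (interval 0.15 to 1.10, adjusted p = 0.207), with no overlap between the muscles in either fraction. In nuclei the muscles did not overlap for probes of Dmd, Utrn, Sgcb and Dysf either, some with soleus higher and some with soleus lower. The share of all probes without overlap between soleus and EDL was not counted, so nothing is read from this, for Dag1 or the others. Intervals for Dmd A_55_P2167922 ran from -0.63 to 0.75 in nuclei and from -0.24 to 1.14 in cytoplasm. For Dysf they ran from -0.30 to 0.71 in both fractions. The nuclear intervals carry the wider cytoplasmic spread, because limma pooled the spread of a probe over the 6 groups. For Dmd A_52_P306697 the nuclear SD was 0.022 in EDL and 0.024 in soleus, while the SE of the difference was 0.375. The lack of a call therefore does not show equal nuclear levels.

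In nuclei, probes of Dmd, Sgca, Sgcb, Sgcd and Sspn were lower in TA than in EDL, while other probes of Dmd, Sgca and Sgcb were not called. Of the probes of the 8 genes, 9 of 17 were called, all lower in TA, beside 17.4% called and 9.81% lower among all 43303 probes tested. In 15 of 17 all nuclear TA arrays were below all EDL arrays, beside 35.4% of all probes. In cytoplasm, 7 of 16 were called, also lower in TA, beside 12.4% called and 7.33% lower, and among them was 1 of the 4 Dmd probes tested. All TA nuclear arrays and 2 of the 3 TA cytoplasmic arrays were on other slides and scanned on another day than EDL, so that muscle and slide cannot be told apart in nuclei. With slide as a random block no probe of the 8 genes was called in nuclei and 2 were in cytoplasm, beside 43 of 43303 and 811 of 46398 over all probes.

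Among nuclear levels, Sgcd was lower in TA by -1.68 (SE 0.36, adjusted p = 0.00658) with A_55_P2138714 and by -1.46 (SE 0.27, adjusted p = 0.003) with A_51_P389004. Dmd A_55_P2167913 differed by -1.66 (SE 0.36, adjusted p = 0.00743), A_55_P2167930 by -2.04 (SE 0.36, adjusted p = 0.00376) and A_55_P2167922 by -1.14 (SE 0.32, adjusted p = 0.0269). Sspn differed by -1.20 (adjusted p = 0.0162), Sgca A_55_P2007384 by -1.15 (adjusted p = 0.0298) and the Sgcb probes A_55_P2182867 and A_66_P108345 by -0.90 (adjusted p = 0.00499) and -1.10 (adjusted p = 0.0159). Utrn and Dysf were not called, with -0.43 (interval -0.86 to 0.00) for Utrn A_55_P2212027 and -0.28 (interval -0.78 to 0.23) for Dysf. The calls on Dmd A_55_P2167922, Sgca and Sspn were lost on leaving out any 1 of 6, 5 and 3 of the EDL and TA nuclear arrays, with adjusted p of up to 0.0874, 0.1 and 0.0604, and that on Sgcb A_66_P108345 without EDL nuclei replicate 2 (adjusted p = 0.0555). In all, 5 probes were called without EDL nuclei replicate 2, beside 3445 of 42038 over all probes. Sgcb A_55_P2016119 differed by 0.16 (adjusted p = 0.556) and Sgca A_55_P2020706 by -0.51 (adjusted p = 0.138), neither called.

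Marker sums, described further on, also differed between TA and EDL nuclei. The summed intensity was 306000 to 344800 in TA nuclei against 371100 to 406500 in EDL nuclei for muscle fiber markers, 39140 to 42740 against 72920 to 75820 for connective tissue, and 1696 to 1835 against 4509 to 4557 for Schwann cells. It was 12220 to 14890 against 1431 to 1490 for satellite cells, 23700 to 31030 against 14370 to 15360 for smooth muscle and pericytes, and 9664 to 11400 against 8838 to 9074 for endothelium. Nuclear RNAs summed to 5630 to 5833 in TA and 10030 to 10220 in EDL, erythroid markers to 19280 to 21460 and 16020 to 16620, and macrophage markers overlapped. The part of these in the TA values was not tested.

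Among cytoplasmic levels, Dmd A_55_P2167922 differed by -2.40 (SE 0.32, adjusted p = 0.00085). TA cytoplasm replicate 1, the only TA array on the slide of EDL cytoplasm, differed from the EDL mean of this probe by -1.89. Sgcb A_55_P2182867 differed by -1.24 (adjusted p = 0.00147), Dysf by -1.04 (adjusted p = 0.014) and Dag1 by -0.90 (adjusted p = 0.0186). The Sgcd probes differed by -1.38 (adjusted p = 0.0225) and -1.25 (adjusted p = 0.0107), and Sgca A_55_P2007384 by -1.26 (adjusted p = 0.0246). That single array differed from the EDL mean by -0.31 and -0.51 for the Sgcd probes A_55_P2138714 and A_51_P389004 and by -0.15 for Sgca. Sspn differed by -0.91 (adjusted p = 0.0624), Sgca A_55_P2020706 by -0.41 (adjusted p = 0.273) and Sgcb A_55_P2016119 by 0.22 (adjusted p = 0.44), none called. Replicate 1 of TA cytoplasm read 11.08 for Sgca A_55_P2007384 and 10.24 for Sspn, inside the EDL cytoplasmic ranges of 11.00 to 11.47 and 10.10 to 10.53, whereas replicates 2 and 3 were below them. Without TA cytoplasm replicate 2, 2 probes were called, and without EDL cytoplasm replicate 1, 4 were. Calls over all probes were then 1061 of 44140 and 2584 of 44979, against 5776 of 46398 with all arrays.

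**Figure D4:**
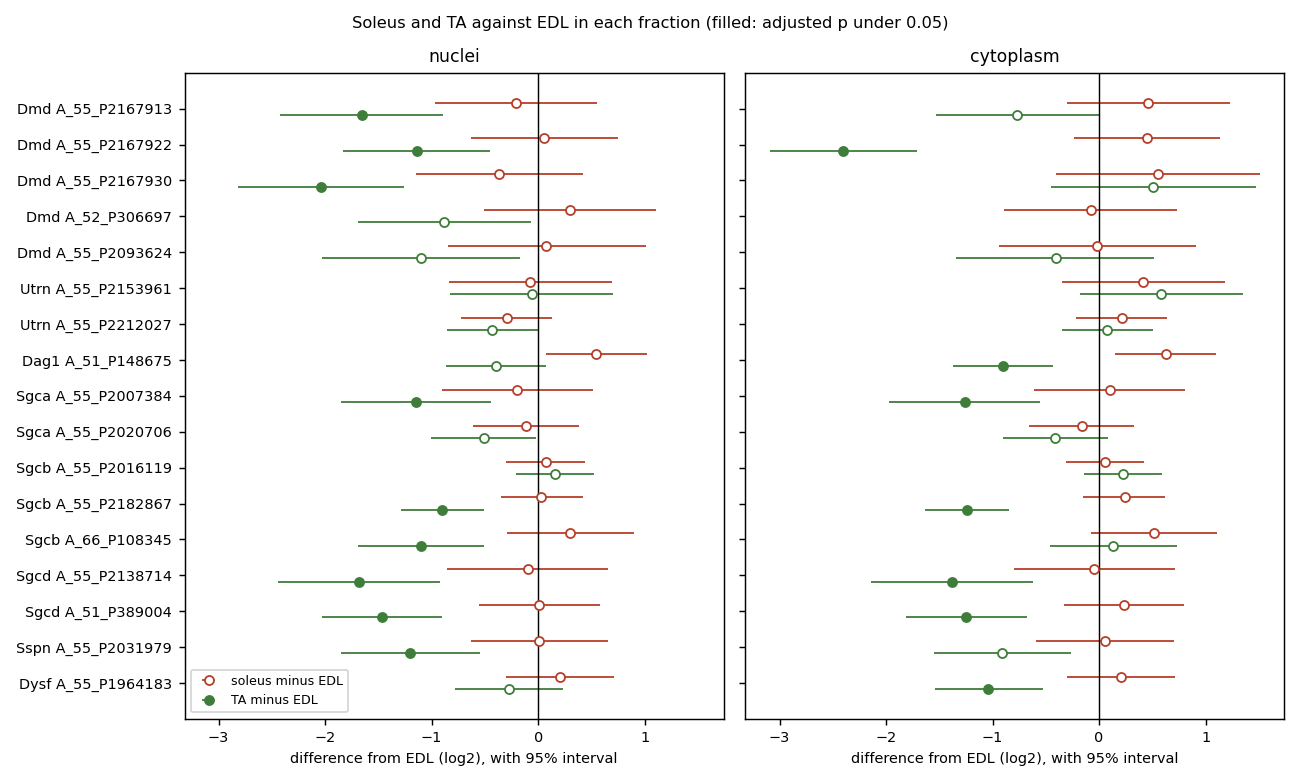
Soleus minus EDL and TA minus EDL (log2, x axis, 95% intervals) for 17 probes in nuclei (left panel) and cytoplasm (right panel); filled points have an adjusted p under 0.05 in limma. No soleus point is filled, and the filled TA points, 9 in nuclei and 7 in cytoplasm, all lie below 0.

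Whether the gap between fractions depended on the muscle was tested with the interaction of fraction and muscle. None of the 16 probes was called by limma's moderated F test (background 1.57%), and 3 had an unadjusted p under 0.05. These were Dmd A_55_P2167930 (adjusted p = 0.0807), Dmd A_55_P2167922 (adjusted p = 0.125) and Sgcb A_66_P108345 (adjusted p = 0.177). In the first and the last the TA gap was the narrowest, and in Dmd A_55_P2167922 it was the widest. Dmd A_55_P2167930 was not well above background in the cytoplasm of any muscle, and was so on only 1 of 3 TA nuclear arrays. Its TA gap is therefore limited by background and cannot be set against that of the other Dmd probe. Sgcb A_66_P108345 was called without soleus cytoplasm replicate 2 (adjusted p = 0.0234), and Dmd A_55_P2167922 without soleus cytoplasm replicate 3 (adjusted p = 0.0306).

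Of the other parts of the complex, 11 genes for further sarcoglycans, syntrophins, dystrobrevins and Nos1 were represented by their brightest probes. In this list and those below each gene stands by 1 bright probe. The shares over all probes take in dim probes and several probes of a gene, so that the 2 are not matched for brightness. Of 10 tested over the 3 muscles, 3 were higher in nuclei, 3 lower and 4 not called, with a median difference of 0.08, beside 31.2% higher and 38.6% lower among all probes. Sntb2, a syntrophin (1.79, SE 0.22), and Dtna, alpha-dystrobrevin (1.26, SE 0.18), were among those higher in nuclei. Sgcz, zeta-sarcoglycan (-1.52, SE 0.16), and Sntg1 (-1.29, SE 0.29) were among those lower. EDL had 3 of them higher and 3 lower, soleus had 2 higher and 2 lower, and TA had 2 higher and 3 lower.

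Over the 3 muscles, genes listed for dystroglycan glycosylation, or for laminin and the basement membrane, were more often called higher than lower in nuclei. Of 13 glycosylation genes tested, 8 were higher and 1 lower (median 0.54), led by Pomgnt1 (1.48, SE 0.23), Dpm1 (1.34, SE 0.12) and Gmppb (0.83, SE 0.21). Of 14 genes listed for laminin and the basement membrane, 13 were higher and none was lower (median 0.93), beside 31.2% of all probes higher. Lama2, the laminin chain of the muscle basement membrane, differed by 1.50 (SE 0.15), Nid2, a nidogen, by 1.25 (SE 0.18) and Agrn, agrin, by 1.18 (SE 0.10). In EDL, soleus and TA, 5 of 13, 2 of 14 and 4 of 14 glycosylation genes were higher. Of the 14 basement membrane genes, 9, 7 and 11 were higher. The shares over all probes were 20.0%, 18.7% and 19.2%. In TA 1 glycosylation gene was lower.

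Among 14 membrane repair genes, the company of Dysf, 9 were higher in nuclei and none was lower (median 0.71), beside 31.2% of all probes higher. Capn3, calpain 3, differed by 1.30 (SE 0.11), Ahnak by 1.10 (SE 0.12) and Ano5 by 1.09 (SE 0.25), with 4, 4 and 5 of 14 genes called higher in EDL, soleus and TA, where 20.0%, 18.7% and 19.2% of all probes were. Among 18 genes of integrins and costameres tested, 12 were higher and 1 lower (median 0.70). Ank3 and Ank2, ankyrins, differed by 1.74 (SE 0.16) and 1.35 (SE 0.14), and Vcl, vinculin, by 1.17 (SE 0.15), while Lims1 was lower (-0.51, SE 0.22, adjusted p = 0.0468). In single muscles 9, 7 and 6 were higher in EDL, soleus and TA, and 1 was lower in EDL.

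Markers of the fiber and of other cells were read in the same way, by the brightest probe of each gene. All 5 nuclear RNAs were higher in nuclei (median 2.78), among them Neat1 (2.78, SE 0.14), Kcnq1ot1 (3.27, SE 0.19) and Xist (4.38, SE 0.47). Of 19 muscle fiber genes, 16 were higher in nuclei and none lower (median 0.72), led by Myh1 (1.31, SE 0.19), Ttn (1.27, SE 0.11) and Tnni1 (1.23, SE 0.50). The summed intensity of the muscle fiber probes was 183700 to 331000 on cytoplasmic arrays and 306000 to 420100 on nuclear arrays. In TA it was 183700 to 245400 in cytoplasm, below the 276600 to 313200 of EDL cytoplasm.

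Markers of cells around the fiber were also present in both fractions. All 10 endothelial markers were well above background on each array of each group, and 10 of 10 were higher in nuclei (median 0.99), with summed intensity of 2515 to 8383 in cytoplasm and 7964 to 11400 in nuclei. The largest differences were those of Tie1 (1.50), Tek (1.32) and Cdh5 (1.25). Of 10 connective tissue markers 9 were higher and none lower (median 0.91), led by Postn (1.83), Pdgfra (1.62) and Fbn1 (1.15), with sums of 20370 to 48110 in cytoplasm and 39140 to 75820 in nuclei. Of 10 smooth muscle and pericyte markers 5 were higher, among them Pdgfrb (2.11), Myh11 (1.68) and Rgs5 (1.30), and Cnn1 (-1.60) and Tagln (-0.43) were lower (median 0.61), with sums of 10040 to 21460 and 14370 to 31030.

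Schwann cell markers were higher in 7 of 9 and lower in 1 (median 0.97), led by Prx (2.71), Egr2 (1.94) and Mbp (1.83), with Mag lower (-0.59) and sums of 895.4 to 1991 in cytoplasm, where Prx was not well above background, and 1696 to 4557 in nuclei. Of 7 satellite cell markers tested 3 were higher (median 0.89), Chodl (2.57), Heyl (1.20) and Vcam1 (0.89), while Calcr was not well above background in any group and the sums ran from 762.0 to 1690 in EDL and soleus cytoplasm, 743.2 to 17720 in TA cytoplasm, 1431 to 2004 in EDL and soleus nuclei and 12220 to 14890 in TA nuclei. Macrophage markers were lower in nuclei in 6 of 9 (median -0.55), led by Tyrobp (-1.30), Adgre1 (-0.93) and Lyz2 (-0.83), with sums of 36550 to 41970 in cytoplasm and 30220 to 42020 in nuclei. Erythroid markers were lower in 4 of 6 (median -0.54), among them Hba-a2 (-0.88), Hbb-b2 (-0.64) and Slc4a1 (-0.56), with sums of 15440 to 45730 and 9290 to 21460, although in TA alone 2 were higher and 1 lower. Since Utrn, Dag1 and Sgcb are also used by endothelial, Schwann and other cells, these values stand beside theirs, and their part in the differences was not tested.

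The genes with the pattern most like each member over the 18 arrays were sought by Pearson's r among 13894 named genes with 1 probe per gene. The 18 arrays share 3 muscles, 2 fractions and 4 slides, so that any gene with the same gap between fractions has a high r. Dmd A_55_P2167922 was closest to Chd2 (0.995), Mapk1ip1 (0.994) and Rock2 (0.992), and Dysf to Akap8 (0.991), Mapk1ip1 (0.989) and Eprs (0.988). Within the set these 2 probes had an r of 0.988 with each other. Utrn A_55_P2212027 was closest to Rmrp (0.995), Maml2 (0.983) and Ahctf1 (0.979), and Dag1 to Myadml2 (0.982), Ppp6c (0.971) and Cyb5r1 (0.965). Sgcd A_55_P2138714 was closest to Srrm1 (0.976), Mrpl42 (0.975) and Rpl3l (0.967), and Sspn to Kcnd2 (0.97), Olfr325 (0.968) and Pigt (0.963). For Sgca A_55_P2020706 and Sgcb A_55_P2016119 the values were lower. They were at 0.908 or less for Cacnb1, Gadd45a and A230072E10Rik, and at 0.909 or less for Rnf135, Calcoco2 and Defb11. Sgcb A_55_P2016119 does not stand for the other Sgcb probes, with r of -0.628 to A_55_P2182867 and -0.693 to A_66_P108345. Which of these probes follows the mRNA was not tested.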

How the data were processed

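RNA of 18 samples (3 for each of 6 groups) was hybridized to 1-colour Agilent arrays, 1 sample per array. The authors extracted the features with Feature Extraction 10.7.3.1, and the deposited scanner files hold its processed intensity per spot, background-subtracted and without scaling between arrays; the probe positions in them are on mm9. From there, following the study's methods, spots not significantly above background were set to missing, log2 intensity was quantile normalized and spots of a probe were averaged. Spots marked as outliers were set to missing as well, a step added here. Missing values made up 16.1% of all values. limma 3.58.1 in R 4.3.3 was fitted to the 6 group means over all probes, and testing a probe required 2 or more values in every group compared. The interaction used a moderated F test. Intervals are 95% intervals, with 12 residual and 3.27 prior degrees of freedom. The methods' test was Significance Analysis of Microarrays, used here as an alternative with 20 permutations per muscle. A probe not well above background on all arrays of a group has only a bound: the brighter group's mean was set, on each array, against the higher of the dim probe's signal and the lowest signal well above background, leaving out arrays without a value. All probes of the 8 genes are named. For other lists each gene stood by its brightest probe, and the 3 genes with the largest called difference in each direction are named, except some that are not reported here. For patterns, the 3 named genes with the highest r to a gene's brightest probe are named. The members and lists were chosen with earlier results of these data known. The deposited value table of the series held no value for the 8 genes and was not used. EDL and soleus samples of a number came from the same mice by the labels. Same-numbered samples correlated at -0.111 to 0.131 in their deviations from the group means, over 35528 probes. The number of arrays limits the precision. The procedure was tested on simulated data.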

Additional observations from a re-analysis of the deposited data

How the results depend on the processing

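Calls on Dmd A_55_P2167913, Dmd A_55_P2167922, Utrn A_55_P2212027 and Dysf over the 3 muscles remained under each alternative that left out an array, with 11 to 12 probes called in all. Over all probes these fits called from 26612 of 39326 to 28894 of 40127. Leaving out each array in turn gave 9 to 11 probes in EDL, 8 to 11 in soleus, 7 to 10 in TA, 5 to 10 for TA against EDL in nuclei, 2 to 10 in cytoplasm, 0 to 1 for the interaction and 0 to 0 for soleus against EDL. Calls over all probes ran from 16515 to 23006 in EDL, 12849 to 20307 in soleus and 19494 to 24383 in TA. For TA against EDL they ran from 3119 to 11064 in nuclei and 1061 to 10810 in cytoplasm. For soleus against EDL they ran from 336 to 1151 and 307 to 1228, and for the interaction from 104 to 1732. With the 3 nuclear arrays of a muscle averaged to a single sample, 6 probes were called in EDL, 2 in soleus, 4 in TA, and 0 for TA against EDL in nuclei and 0 in cytoplasm. Over all probes this setting called 3158 of 43669 in EDL, 1408 of 43620 in soleus and 4391 of 43699 in TA. For TA against EDL it called 0 of 42909 in nuclei and 10 of 46398 in cytoplasm. Slide as a random block gave 0 for TA against EDL in nuclei and 2 in cytoplasm, beside 43 of 43303 and 811 of 46398 over all probes. With slide as a fixed block TA cytoplasm rests on 1 array and the spread comes from the other groups, so that no count is given. Significance Analysis of Microarrays called 5 in TA, beside 9274 of 39373 over all probes. Without scaling between arrays, 17 were called in soleus, beside 27107 of 43620 over all probes. That setting gave 14 for TA against EDL in nuclei, beside 12779 of 43303, and 2 for the interaction, beside 14766 of 40541. With normexp 1 was called for the interaction, beside 1478 of 40541. The interaction calls were Dmd A_55_P2167930 and Sgcb A_66_P108345 without scaling and Dmd A_55_P2167930 with normexp, and 1 each without soleus cytoplasm replicate 2 and replicate 3. Among values called with or without scaling, direction reversed without scaling for Sgcb A_55_P2016119 (0.49) and Sspn (0.213) over the 3 muscles. In soleus it did so for Dag1 (1.134), Sgca A_55_P2007384 (0.998), Sgcb A_55_P2016119 (1.001) and Sspn (0.711). The share of calls higher in nuclei over all probes was 44.8% with quantile normalization and 70.1% without scaling over the 3 muscles, and the cause was not tested. In EDL this share was 43.0% with quantile normalization, 31.4% with 75th percentile scaling and 69.5% without scaling, and in soleus 46.3%, 32.4% and 92.3%. With the replicate number as a block, 12 probes were called over the 3 muscles, 11 in EDL, 9 in soleus and 7 in TA, and 0 for the interaction and for soleus against EDL. Over all probes this gave 28156 of 40484 for the 3 muscles, 19662 of 42855 in EDL, 16830 of 42707 in soleus and 22547 of 43164 in TA. The interaction had 189 of 40484, and soleus against EDL had 456 of 43165 in nuclei and 382 of 44112 in cytoplasm. This replicate block changed 2 calls, gaining Sgcd A_55_P2138714 in EDL (adjusted p = 0.0457) and losing Dag1 in TA (adjusted p = 0.0673). In TA the block follows the replicate number and not the mice. By the labels, TA cytoplasm replicates 1 and 2 shared 1 mouse, and replicate 3 shared none with its nuclear counterpart. Of all single-probe values, 3701 kept their side of the threshold, 73 gained a call and 106 lost one, and 6 reversed direction with a call in the main fit or the alternative. Direction was not compared where neither fit called the probe, so the 3701 can include changes of direction. The block could not be fitted for TA against EDL, nor slide as a fixed block for EDL, soleus, the 3 muscles, TA against EDL in nuclei or the interaction, because no shared number or slide links those groups. The deposited value table gave no value. Signal near background limits the 3 most downstream Dmd probes and Utrn A_55_P2153961.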
